A study of Mus musculus with 6 samples.

Results

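The genes described here encode the enzymes that add acetyl and methyl groups to histones and the enzymes that take them off, measured on arrays in 6 mouse colon tumours. A gene was a member if its symbol was Hdac, Sirt, Kat, Kdm, Kmt, Setd or Prmt followed by a digit and if at least 1 probe set named it alone. This gave 68 of the 19938 genes in the table, from 75 probe sets, in 6 enzyme classes: 11 histone deacetylases (Hdac), 7 sirtuins (Sirt), 8 lysine acetyltransferases (Kat), 18 lysine demethylases (Kdm), 16 lysine methyltransferases (Kmt and Setd) and 8 arginine methyltransferases (Prmt). Within this rule the symbols alone chose the members, but the rule was set with earlier results of these data known. All mice carried ApcMin, a germline mutation of the tumour suppressor gene Apc, over a wild-type Apc allele, and all carried the hypomorphic chip allele of Dnmt1, the gene of the maintenance DNA methyltransferase. In the 3 control tumours (Dnmt1chip/+; ApcMin/+) the other Dnmt1 allele was wild type, and in the 3 hypomethylated tumours (Dnmt1chip/c; ApcMin/+) it was the knockout allele c. The mice were F1 hybrids of a C57BL/6 parent (Dnmt1c/+; ApcMin/+) and a 129Sv4 parent (Dnmt1chip/chip), were treated when 6 weeks old with 2% (w/v) dextran sodium sulfate, a colon irritant that promotes tumour growth, and their tumours were taken at 20 weeks. Per the study's design text, Dnmt1chip/c mice have less methylated pericentromeric satellite repeats and Dnmt1chip/+ mice do not differ from wild type. The mutations were present in every cell of the mouse, and the controls were themselves carriers of the hypomorphic allele.

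Acetyl groups on histone tails loosen the hold of histones on DNA and are read by bromodomain proteins at active genes, and deacetylases, most of them working inside corepressor complexes, remove them. Methyl groups on lysine or arginine do not change the charge of the tail, and the same chemistry marks active promoters at some residues and silent chromatin at others. In the intestine these enzymes act with DNA methylation in the control of crypt cell proliferation and differentiation, and several of them modify proteins other than histones.

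Values are read on a log2 scale, although no label gives the base, and each probe set was centred on its median over the 6 arrays. They show how the tumours differ for a gene and carry no level, so genes are not compared with each other in abundance. Centring also sets the inner values of separated groups: for 42 of the 43 members whose groups did not overlap, the control value and the hypomethylated value nearest to each other were mirror images around 0 (within 0.01). Whether the tumours came from separate mice is not stated. In the sample descriptions the 3 hypomethylated tumours share a number, as do 2 of the 3 controls. The p-values therefore reflect only how much these tumours vary, and an effect of genotype and one of a single mouse cannot be told apart. Tumours are given throughout in the order of their replicate numbers. In whole tumours, fewer cells of a type and less RNA per cell cannot be told apart either. Dnmt1 itself fell by 0.87 ± 0.06 (SE) on the log2 scale (limma, adjusted p = 3.13e-04), but the position of its probes relative to the 2 engineered alleles is not given. All 8 colon epithelial markers were on the coarser of the 2 value steps in the table, which is taken to mean values of 8 or more in every tumour before centring.

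Since the comparison concerns DNA methylation, the CpG dinucleotides in front of the members are shown first. The promoter of the lower member with the largest fall in each class is printed, together with that of Hdac9, the lower member with the fewest CpG, and that of Kdm5d, the single higher member. Each sequence is the 150 bases before the first listed start (RefSeq, GRCm38.p6), read 5′ to 3′ on the strand of the gene, with CpG in capitals. They lie at chrX:7947890-7948039 (minus strand, 10 CpG) for Hdac6, chr10:81627567-81627716 (minus, 10 CpG) for Sirt6, chr7:127912367-127912516 (plus, 8 CpG) for Kat8, chrX:18162425-18162574 (plus, 12 CpG) for Kdm6a, chr3:51560824-51560973 (minus, 7 CpG) for Setd7, chr7:44986421-44986570 (minus, 8 CpG) for Prmt1, chr12:34917096-34917245 (minus, 0 CpG) for Hdac9 and chrY:897638-897787 (plus, 7 CpG) for Kdm5d.
Hdac6: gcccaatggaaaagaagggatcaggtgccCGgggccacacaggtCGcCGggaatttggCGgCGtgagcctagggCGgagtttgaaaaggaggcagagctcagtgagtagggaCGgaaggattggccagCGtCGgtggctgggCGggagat
Sirt6: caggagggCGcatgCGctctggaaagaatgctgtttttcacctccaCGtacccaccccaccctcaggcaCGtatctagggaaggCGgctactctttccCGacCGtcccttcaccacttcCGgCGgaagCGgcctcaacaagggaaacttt
Kat8: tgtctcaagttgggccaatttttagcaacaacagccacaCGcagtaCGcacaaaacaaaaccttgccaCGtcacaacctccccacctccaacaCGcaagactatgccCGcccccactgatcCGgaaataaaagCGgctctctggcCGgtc
Kdm6a: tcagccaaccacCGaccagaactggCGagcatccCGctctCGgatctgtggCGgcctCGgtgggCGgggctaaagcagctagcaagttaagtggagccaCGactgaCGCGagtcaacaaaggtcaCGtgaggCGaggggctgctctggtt
Setd7: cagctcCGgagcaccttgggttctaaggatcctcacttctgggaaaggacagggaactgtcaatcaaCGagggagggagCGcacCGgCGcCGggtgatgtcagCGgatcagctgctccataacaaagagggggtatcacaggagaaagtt
Prmt1: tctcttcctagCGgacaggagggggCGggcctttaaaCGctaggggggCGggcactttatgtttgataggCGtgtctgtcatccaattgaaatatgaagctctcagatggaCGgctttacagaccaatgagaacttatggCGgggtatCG
Hdac9: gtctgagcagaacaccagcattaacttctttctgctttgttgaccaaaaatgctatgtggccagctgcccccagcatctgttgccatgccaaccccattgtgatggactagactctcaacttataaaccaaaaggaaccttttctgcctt
Kdm5d: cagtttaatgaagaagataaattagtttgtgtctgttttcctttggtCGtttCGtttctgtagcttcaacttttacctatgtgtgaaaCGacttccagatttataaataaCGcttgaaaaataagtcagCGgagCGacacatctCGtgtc

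Methylation was not measured in the values used here, so these sequences describe the promoters and not their state. A promoter was listed for 56 members. In the 250 bases before the start the members had a median of 14.5 CpG and a GC content of 58.8%, against 11 CpG and 56.4% in the 15614 genes that had both a value and a promoter. The 23 lower members with a promoter had a median of 13 CpG, and the 32 members that did not pass the test had 16.5. The ratio of observed to expected CpG was 0.68 in the lower members, 0.82 in those that did not pass and 0.59 in all genes. Lower members spanned windows from 0 CpG in Hdac9 to 39 in Sirt1, with 15 in Kdm6a. Letter matches on both strands were counted in the same windows. The GC box GGGCGG was in 57.1% of the members' windows and 46% of all genes', and the CCAAT box in 44.6% and 35.5%. The ETS motif CCGGAAG was in 14.3% of members (8 of 56) and 9.63% of all genes. It was in 4.35% of lower members (1 of 23) and 21.9% of members that did not pass (7 of 32). The E2F motif TTCCCGC was in 5.36% of members (3 of 56) and 5.33% of all genes, and the CDX motif TTTATG in 3.57% (2 of 56) and 9.01%. Differences in motifs between these sets were not tested.

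Of the 68 enzymes, 28 fell and 1 rose in the hypomethylated tumours (limma, adjusted p under 0.05 by Benjamini-Hochberg over the whole table), and the falls were small. The shares were 41.2% lower and 1.47% higher, where 21.3% of all genes tested were lower and 10.7% were higher. The median difference over all 68 members was -0.18 on the log2 scale, against -0.01 over all genes. Among the lower members the median fall was 0.38, or 1.3-fold, with a range from 0.18 (1.13-fold) to 0.73 (1.66-fold). A fall of 0.5 or more was seen in 9 members and one of less than 0.25 in 3, and 0 members reached 2-fold. All 29 called members had groups that did not overlap, as did 6370 of the 6380 called genes in the whole table. Counting without a test, all 3 hypomethylated values lay below all 3 control values in 39 members and above them in 4, where the shares in all genes were 28.5% and 17.9%. The plot of differences by class shows this lean to the left of 0, with 47 members below 0 and 21 above.

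**Figure D1:**
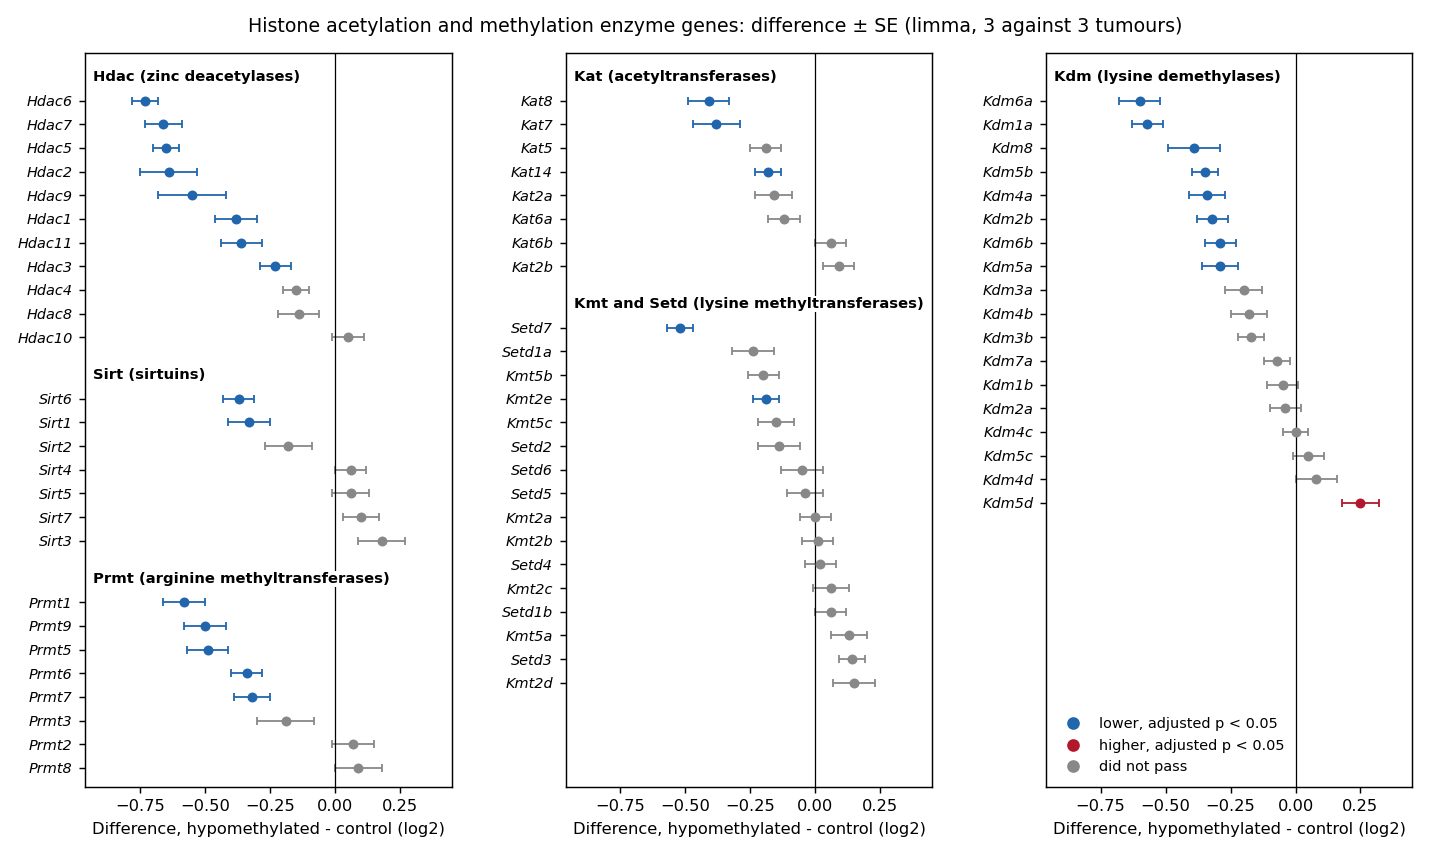
Difference of the hypomethylated from the control tumours (log2) for each of the 68 enzymes, sorted by class and size, with bars of 1 standard error. Members with an adjusted p under 0.05 are in blue (lower) or red (higher), and the others are in grey. The 28 lower members run from -0.73 for Hdac6 to -0.18 for Kat14, and Kdm5d at 0.25 is the single red point.

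The share in all genes is not the nearest yardstick, because 63 of the 68 members were on the coarser value step. When the fit was made over the 10300 genes on that step, 37.0% of all genes were lower and 16.2% higher, with a median difference of -0.11. The 63 members then gave 32 lower, or 50.8%, and 1 higher, or 1.59%, with a median of -0.18. The lower share and the median of the members were therefore nearer to the background among genes taken to have higher values, while the higher share was farther from it. By class, the deacetylases (8 of 11 lower, 72.7%) and the arginine methyltransferases (5 of 8, 62.5%) had the largest shares. The demethylases followed with 8 of 18 (44.4%), the acetyltransferases with 3 of 8 (37.5%) and the sirtuins with 2 of 7 (28.6%). The lysine methyltransferases, with 2 of 16 (12.5%), were below the share of all genes. On the coarser step the same classes gave 7 of 10, 5 of 7, 10 of 17, 4 of 8, 2 of 6 and 4 of 15 against 37.0%. The differences between classes were not tested, and classes of 7 to 18 genes give coarse shares.

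**Figure D2:**
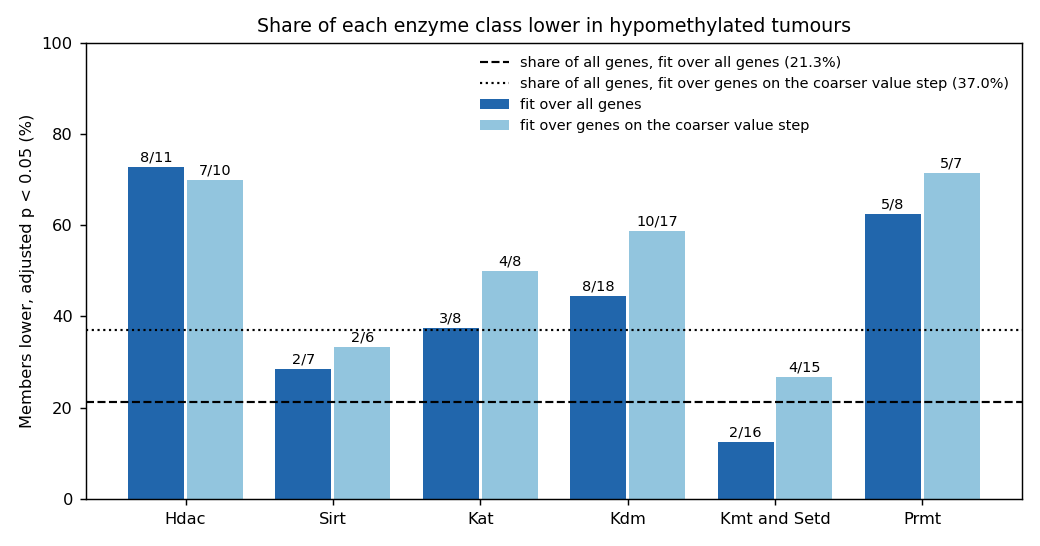
Share of each enzyme class that was lower in the hypomethylated tumours (percent of members, adjusted p under 0.05), in the fit over all genes and in the fit over genes on the coarser value step. Numbers on the bars are members called of members measured, and the lines mark the shares of all genes in each fit, 21.3% and 37.0%.

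The zinc-dependent deacetylases fell in 8 of 11 members, with a median difference of -0.38. Hdac6, a mostly cytoplasmic enzyme that deacetylates tubulin, had the largest fall of all members. Its centred log2 values were 0.38, 0.37 and 0.33 in controls and -0.33, -0.39 and -0.38 in hypomethylated tumours, a fall of 0.73 ± 0.05 (SE; adjusted p = 3.08e-04). The 2 groups were apart by several times the spread within either of them. In class IIa, enzymes that shuttle between cytoplasm and nucleus and repress the targets of MEF2 factors, 3 of 4 fell. Hdac7 had 0.27, 0.37 and 0.26 against -0.26, -0.44 and -0.38, a fall of 0.66 ± 0.07 (adjusted p = 9.28e-04). Hdac5 had 0.28, 0.33 and 0.36 against -0.35, -0.28 and -0.34, a fall of 0.65 ± 0.05 (adjusted p = 4.71e-04). For both genes the groups did not overlap, and centring then puts them on either side of 0. Hdac9 had 0.07, 0.21 and 0.30 against -0.07, -0.53 and -0.46, a fall of 0.55 ± 0.13 (adjusted p = 0.0163). It was the only called member off the coarser value step. Its first control and first hypomethylated tumours lay close together, its SD of 0.25 was the highest among the members in that group, and the call was lost without control 2, control 3, hypomethylated 2 or hypomethylated 3. Hdac4, the fourth of that class, differed by -0.15 (adjusted p = 0.0781), and its 2 probe sets disagreed at -0.28 and -0.01.

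Class I holds the catalytic subunits of the nuclear corepressors, and 3 of its 4 genes fell, with a class median of -0.31. Hdac2, which pairs with Hdac1 in the Sin3, NuRD and CoREST complexes, had 0.33, 0.38 and 0.17 in controls and -0.32, -0.57 and -0.17 in hypomethylated tumours. The fall was 0.64 ± 0.11 (1.56-fold, adjusted p = 0.0054), with the third tumour of each group nearest to 0. Hdac1 had 0.21, 0.09 and 0.22 against -0.32, -0.09 and -0.22, a fall of 0.38 ± 0.08 (adjusted p = 0.0091), and both its probe sets fell, by 0.39 and 0.37. RefSeq lists a pseudogene of Hdac1, with no probe set of its own here, so shared probes are possible. Hdac3, the enzyme of the NCoR and SMRT corepressors, had 0.08, 0.15 and 0.10 against -0.12, -0.17 and -0.08, a fall of 0.23 ± 0.06 (adjusted p = 0.0187). That call was lost without control 1, control 2 or hypomethylated 2. Hdac11, the only class IV enzyme and an efficient remover of fatty acyl groups, had 0.09, 0.17 and 0.30 against -0.14, -0.09 and -0.29, a fall of 0.36 ± 0.08 (adjusted p = 0.0148). Hdac8 at -0.14 (adjusted p = 0.261) and Hdac10, which acts on polyamines, at 0.05 (adjusted p = 0.566) did not pass.

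Of the sirtuins, which use NAD to remove acyl groups, 2 of 7 fell, and both act in the nucleus. Sirt6, a chromatin deacetylase with roles in DNA repair and glucose metabolism, had 0.15, 0.18 and 0.16 in controls and -0.22, -0.27 and -0.15 in hypomethylated tumours. The fall was 0.37 ± 0.06 (1.3-fold, adjusted p = 0.00319), and the 3 control tumours lay close together. Sirt1, which deacetylates histones and transcription factors, had 0.18, 0.21 and 0.07 against -0.17, -0.30 and -0.07, a fall of 0.33 ± 0.08 (adjusted p = 0.0159). The count for the class was 1 without control 1 or without control 2, since Sirt1 then did not pass. Sirt2, mostly cytoplasmic, differed by -0.18 (adjusted p = 0.183) and the nucleolar Sirt7 by 0.10 (adjusted p = 0.287). The mitochondrial Sirt3, Sirt4 and Sirt5 differed by 0.18 (adjusted p = 0.165), 0.06 and 0.06. The class median was 0.06, above that of every other class, with 5 members that did not pass. Sirt3 had -0.06, -0.05 and 0.02 against -0.02, 0.28 and 0.20, so its groups overlapped through hypomethylated 1, and without that tumour it passed as higher.

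Of the lysine acetyltransferases, 3 of 8 fell, with a class median of -0.17, and the largest fall was in a member of the MYST family. Kat8, known as MOF and the main acetylase of histone H4 in the MSL and NSL complexes, had 0.18, 0.31 and 0.13 in controls and -0.18, -0.31 and -0.13 in hypomethylated tumours. The fall was 0.41 ± 0.08 (1.33-fold, adjusted p = 0.00644), with the second tumour of each group farthest from 0. Kat7, known as HBO1 and linked to replication origins, had 0.18, 0.11 and 0.11 against -0.11, -0.21 and -0.44, a fall of 0.38 ± 0.09 (adjusted p = 0.0176). Hypomethylated 3 was lower than the rest, and the call was lost without control 1. Kat14, a subunit of the ATAC complex, had 0.15, 0.12 and 0.06 against -0.06, -0.08 and -0.06, a fall of 0.18 ± 0.05 (adjusted p = 0.0426). It is the member nearest to the threshold and lost its call when any 1 of the 6 tumours was left out, with arrays centred on their median and with quantile normalization. Without control 1 the class therefore had 1 lower member. Kat5, known as Tip60, had 0.08, 0.13 and 0.04 against -0.08, -0.19 and -0.04. These groups did not overlap, and the difference of -0.19 ± 0.06 did not pass (adjusted p = 0.0586). Kat2a and Kat2b, the paralogues GCN5 and PCAF, differed by -0.16 (adjusted p = 0.132) and 0.09 (adjusted p = 0.334). Kat6a and Kat6b, known as MOZ and MORF, differed by -0.12 and 0.06, and RefSeq lists pseudogenes of Kat2b and Kat6b.

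The lysine demethylases fell in 8 of 18 members and rose in 1, with a median of -0.19. Kdm6a, an X-linked enzyme that removes the methyl mark laid down by Polycomb, had 0.28, 0.29 and 0.21 in controls and -0.21, -0.49 and -0.34 in hypomethylated tumours. The fall was 0.60 ± 0.08 (1.52-fold, adjusted p = 0.0021). Its autosomal relative Kdm6b fell by 0.29 ± 0.06 (adjusted p = 0.0119), from 0.18, 0.23 and 0.08 to -0.17, -0.14 and -0.08, and lost the call without control 1. Kdm1a, the flavin-dependent demethylase LSD1 of the CoREST complex, had 0.30, 0.38 and 0.25 against -0.30, -0.25 and -0.25, a fall of 0.57 ± 0.06 (adjusted p = 8.01e-04). Its 3 hypomethylated tumours lay close together. The related Kdm1b differed by -0.05 (adjusted p = 0.611). Kdm8, also known as Jmjd5, had 0.19, 0.26 and 0.06 against -0.22, -0.06 and -0.39, a fall of 0.39 ± 0.10 (adjusted p = 0.0195) that was lost without control 1 or control 2.

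The Kdm5 enzymes, which remove the methyl mark of active promoters, did not move together. Kdm5b fell by 0.35 ± 0.05 (adjusted p = 0.00297), from 0.15, 0.21 and 0.22 to -0.15, -0.15 and -0.18. Kdm5a fell by 0.29 ± 0.07 (adjusted p = 0.0185), from 0.05, 0.20 and 0.19 to -0.05, -0.17 and -0.20. Its first control and first hypomethylated tumours were both near 0, and the call was lost without control 2, control 3, hypomethylated 2 or hypomethylated 3. The X-linked Kdm5c had -0.05, 0.03 and -0.06 against -0.01, 0.08 and 0.01 and did not pass, with a difference of 0.05 ± 0.06 (adjusted p = 0.545). Its Y-linked counterpart Kdm5d rose by 0.25 ± 0.07 (1.19-fold, adjusted p = 0.0341), from -0.19, -0.03 and -0.18 to 0.11, 0.03 and 0.19. The second tumours of the groups lay closest together, and the call was lost without control 1, control 3, hypomethylated 1 or hypomethylated 3. There were 0 higher members without control 1, control 3 or hypomethylated 3. Kdm5c and Kdm5d are close paralogues, so shared probes are possible. The other Y-linked genes measured, Eif2s3y and Uty, differed by -0.05 (adjusted p = 0.729) and -0.28 (adjusted p = 0.0716), and Xist, which marks an inactive X, by 0.17 (adjusted p = 0.154). All 3 Y-linked genes were on the coarser value step and Xist was not, and the values of these 4 genes ran from -0.29 to 0.20 over the 6 tumours.

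Among the remaining demethylases, Kdm2b, which binds unmethylated CpG islands and brings a Polycomb complex there, fell by 0.32 ± 0.06 (adjusted p = 0.0084), from 0.22, 0.24 and 0.10 to -0.10, -0.18 and -0.12. Its paralogue Kdm2a, with the same kind of DNA-binding domain, differed by -0.04 (adjusted p = 0.625). Kdm4a fell by 0.34 ± 0.07 (adjusted p = 0.0102), from 0.12, 0.17 and 0.10 to -0.10, -0.21 and -0.31. Kdm4b, Kdm4c and Kdm4d, of the same family of demethylases for repressive marks, differed by -0.18 (adjusted p = 0.0957), 0.00 and 0.08. RefSeq lists a pseudogene of the Kdm4d kind. Kdm3a, with roles in sperm formation and fat metabolism, had 0.11, 0.22 and 0.04 against -0.06, -0.04 and -0.14, and Kdm3b had 0.09, 0.05 and 0.10 against -0.05, -0.06 and -0.14. Neither pair of groups overlapped, and neither difference passed, at -0.20 ± 0.07 (adjusted p = 0.058) and -0.17 ± 0.05 (adjusted p = 0.0546). Kdm7a differed by -0.07 (adjusted p = 0.384).

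The lysine methyltransferases had 2 lower members of 16 and a median of -0.02. Setd7, which adds a single methyl group to histone H3 and to many other proteins, had 0.25, 0.27 and 0.25 in controls and -0.25, -0.29 and -0.27 in hypomethylated tumours. The fall was 0.52 ± 0.05 (1.44-fold, adjusted p = 6.81e-04), with little spread in either group. Kmt2e, a divergent member of the trithorax-related Kmt2 family, had 0.08, 0.09 and 0.11 against -0.08, -0.14 and -0.08, a fall of 0.19 ± 0.05 (adjusted p = 0.0286). It lost the call with quantile normalization and when control 1, control 2, control 3, hypomethylated 2 or hypomethylated 3 was left out. Without control 1, control 2 or hypomethylated 2 the class then had 1 lower member. The other Kmt2 genes, large methyltransferases of promoters and enhancers, did not pass: Kmt2a differed by 0.00, Kmt2b by 0.01, Kmt2c by 0.06 and Kmt2d by 0.15 (adjusted p = 0.198). Kmt2d had -0.10, 0.04 and -0.18 against -0.02, 0.09 and 0.13, so its groups overlapped.

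The Setd1 pair, which places most of the promoter mark, differed by -0.24 for Setd1a and by 0.06 for Setd1b. Setd1a had 0.12, 0.19 and 0.01 against -0.19, -0.20 and -0.01, with the third tumours of both groups near 0 (SE 0.08, adjusted p = 0.0522), and passed without control 3 or without hypomethylated 3. Of the methyltransferases of histone H4, Kmt5b had 0.05, 0.09 and 0.04 against -0.04, -0.17 and -0.22, a difference of -0.20 ± 0.06 (adjusted p = 0.0537). It passed without hypomethylated 1. Kmt5c, its partner in heterochromatin, differed by -0.15 (adjusted p = 0.164) and Kmt5a, the enzyme for the single methyl group, by 0.13 (adjusted p = 0.211). Setd2, the enzyme that marks transcribed gene bodies, differed by -0.14 (adjusted p = 0.221). Setd3, which methylates a histidine of actin, had -0.04, -0.06 and -0.04 against 0.10, 0.11 and 0.07. These groups did not overlap, and the difference of 0.14 ± 0.05 did not pass (adjusted p = 0.0796), with 0.20 and 0.07 at its 2 probe sets. It passed as higher with arrays centred on their median and with quantile normalization. Setd4, Setd5 and Setd6 differed by 0.02, -0.04 and -0.05.

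The arginine methyltransferases fell in 5 of 8 members, with a median of -0.33. Prmt1, the main source of asymmetric dimethylarginine, had 0.32, 0.39 and 0.18 in controls and -0.30, -0.39 and -0.18 in hypomethylated tumours. The fall was 0.58 ± 0.08 (1.5-fold, adjusted p = 0.00257), with the third tumours nearest to 0. Prmt5, the main source of symmetric dimethylarginine and an enzyme needed for splicing, had 0.32, 0.23 and 0.17 against -0.19, -0.38 and -0.17, a fall of 0.49 ± 0.08 (adjusted p = 0.00398). Prmt9, a second symmetric enzyme that acts on a splicing factor, had 0.16, 0.29 and 0.16 against -0.16, -0.31 and -0.42, a fall of 0.50 ± 0.08 (adjusted p = 0.00445). Enzymes for both forms of dimethylarginine were thus among those that fell. Prmt6, which methylates histone H3, had 0.23, 0.20 and 0.10 against -0.19, -0.20 and -0.10, a fall of 0.34 ± 0.06 (adjusted p = 0.00627). Prmt7, which adds a single methyl group, had 0.26, 0.27 and 0.08 against -0.08, -0.19 and -0.09, a fall of 0.32 ± 0.07 (adjusted p = 0.0147) that was lost without control 1 or control 2. Prmt3, a methyltransferase of a ribosomal protein, differed by -0.19 (adjusted p = 0.229) and had the highest SD among the members in the control group, 0.14. Prmt2 and the brain-enriched Prmt8 differed by 0.07 and 0.09.

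**Figure D3:**
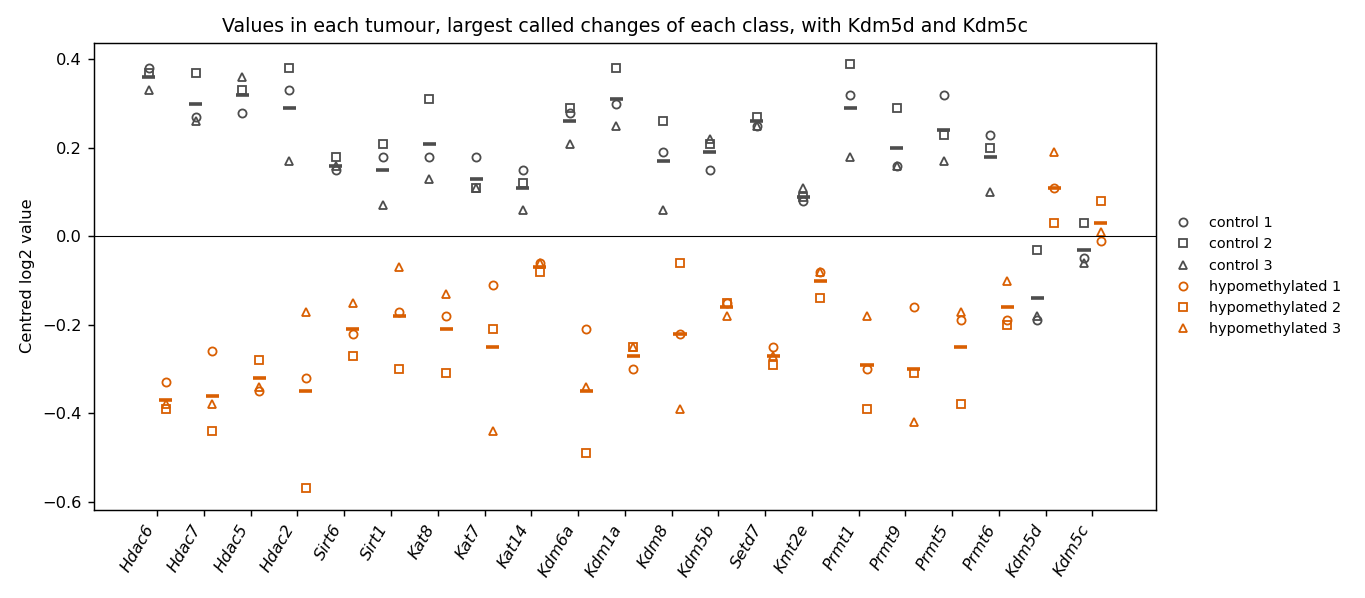
Centred log2 value of each tumour for 21 of the enzymes, with control and hypomethylated tumours in separate colours. For each lower enzyme shown all control values lie above all hypomethylated values, from a wide gap in Hdac6 to narrow ones in Kat14 and Kdm8. Kdm5d shows the opposite order.

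The lower members were picked by a test that favours little spread within groups, so even medians over the tumours are no separate result. Their median centred values were 0.18, 0.23 and 0.16 in controls and -0.17, -0.23 and -0.19 in hypomethylated tumours. The median within-group SD over all members was 0.06 in the control and 0.08 in the hypomethylated tumours. In the exact permutation test of each gene (two-sided, 20 assignments of 3 against 3) every called member gave 0.1, the smallest p that design allows, so single genes could not pass 0.05 that way. Just inside the threshold lay Kat14 (adjusted p = 0.0426), Kdm5d (0.0341) and Kmt2e (0.0286), and just outside it Setd1a (0.0522), Kmt5b (0.0537), Kdm3b (0.0546), Kdm3a (0.058) and Kat5 (0.0586). All 5 of the latter were lower in all 3 hypomethylated tumours than in any control tumour, and all 5 passed in the fit over the genes on the coarser step. The 39 members that did not pass were 19 below and 20 above 0, from -0.24 to 0.18. Away from the threshold, 17 called members passed at 0.05 under every alternative run: Hdac1, Hdac2, Hdac5, Hdac6 and Hdac7, Sirt6, Kat8, Kdm1a, Kdm2b, Kdm4a, Kdm5b and Kdm6a, Setd7, and Prmt1, Prmt5, Prmt6 and Prmt9. Kdm4d, Kmt2a and Setd2 are on chromosome 9 with Dnmt1, and 0 of these 3 were called. Of all genes 21.3% were lower and 10.7% higher, so 3 genes are too few to show an effect of linkage or its absence.

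Enzymes of the same chemistry under other symbols, and the partners of all these enzymes, were counted in the fit over all genes, where 21.3% were lower. Most of the listed genes were on the coarser value step, where 37.0% were lower in a fit of their own. In that fit 5 of 12 JmjC proteins and 19 of 37 subunits of acetyltransferase complexes were lower. Of 31 other acetyltransferases and lysine or arginine methyltransferases, 15 fell and 1 rose, with a median of -0.16. Ezh2, the Polycomb methyltransferase, fell by 0.77, Smyd3 by 0.93, Ehmt1 by 0.54 and Carm1, an arginine methyltransferase also called Prmt4, by 0.36, and the coactivator Ncoa1 rose by 0.38. The number that fell was 6 without control 1 and 8 without control 2 or hypomethylated 2. Of 12 other proteins of the JmjC demethylase kind, 4 fell and 0 rose, with a median of -0.13, among them Jarid2, a partner of the Polycomb methyltransferase, by 0.45, and Phf8 by 0.30.

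The corepressors and complexes hold the enzymes and steer them to their targets. Of 29 subunits of the deacetylase corepressors, 14 fell and 1 rose, with a median of -0.24. Rcor2 of the CoREST family fell by 0.86, the histone chaperone Rbbp4 by 0.60 and the NuRD subunits Mta1 and Mbd3 by 0.57 and 0.39, and Mier1 rose by 0.34. The lower count was 9 without control 1. Of 38 subunits of acetyltransferase complexes, 13 fell and 1 rose, with a median of -0.18. Meaf6, which is shared by several MYST complexes, fell by 0.65, and Brpf3, a scaffold that partners Kat7, rose by 0.71. Of 14 subunits of the Kmt2 and Setd1 complexes, 9 fell and 0 rose, with a median of -0.27, while 1 of the 5 Kmt2 genes themselves fell. Men1 fell by 0.41, Hcfc1 by 0.37 and Wdr5 by 0.35. Dpy30 (-0.23), Ncoa6 (-0.09), Hcfc2 (-0.09), Ash2l (-0.03) and Rbbp5 (0.06) did not pass. The lower count was 3 without control 1, 4 without control 2 and 5 without hypomethylated 2. Of 20 readers of acetylated lysine, 9 fell and 0 rose, with a median of -0.20, among them Mllt3 by 0.50 and Brd3 by 0.37.

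The genes listed for the supply of acetyl-CoA, S-adenosylmethionine and NAD included both rises and falls. That list also holds Idh1, Idh2, Sdha, Sdhb and Fh1, which do not themselves supply these cofactors. Of those, Idh2 fell, Idh1 and Sdha rose, and Sdhb and Fh1 did not pass. Of all 24 genes on the list, 4 fell and 7 rose, with a median of -0.01, where 21.3% of all genes were lower and 10.7% higher. In the fit over the coarser step 4 of 19 fell and 7 rose, where 37.0% and 16.2% of all genes did. The difference of this list from the enzymes was not tested. Acss2, which makes acetyl-CoA from acetate, rose by 0.47 and Sdha by 0.31, while Idh2 and Shmt2, both mitochondrial, fell by 0.52 and 0.69. The lower count was 2 without control 1 or control 2, and the higher count was 4 without control 1, control 3 or hypomethylated 3.

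Several lists of proliferation and cell-type markers differed in the same comparison, and others did not. Of all genes 21.3% were lower and 10.7% higher, and in the fit over the coarser step 37.0% and 16.2%. Of 19 proliferation genes, 15 fell and 0 rose, with a median of -0.52. Among those that fell were the replication helicase subunits Mcm2 (by 0.73) and Mcm7 (by 0.59) and the transcription factor E2f1 (by 0.73). Aurka (-0.28), Mki67 (-0.20), Top2a (-0.18) and Birc5 (-0.03) did not pass. The mean centred value of that list was from 0.10 to 0.34 in the control tumours and from -0.35 to -0.11 in the hypomethylated tumours. Of 9 fibroblast markers 5 fell and 1, Fap, rose, with list means from 0.06 to 0.44 against -0.52 to -0.04. The fibroblast count that fell ranged from 2 without hypomethylated 3 to 8 without hypomethylated 1, and was 3 without control 2, control 3 or hypomethylated 2. Of 6 smooth muscle markers 3 fell and 0 rose (0.13 to 0.36 against -0.36 to -0.11), and of 6 endothelial markers 4 fell and 1, Tek, rose (0.08 to 0.22 against -0.47 to -0.08). The endothelial count was 2 without control 2, control 3 or hypomethylated 3. Of 7 macrophage markers 3 fell and 0 rose, but their list means overlapped, from -0.03 to 0.50 against -0.86 to 0.02. The macrophage count was 6 without hypomethylated 1 and 0 without any other tumour.

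Of 8 colon epithelial markers 6 rose and 0 fell, with a median of 0.32 and list means from -0.38 to -0.31 against 0.28 to 0.53. Of all genes 10.7% were higher, and 16.2% in the fit over the coarser step. Cdx2, the intestinal transcription factor, rose by 3.49 and so weighs most in the list means. Vil1 rose by 1.02, Cdx1 by 0.75, Krt19 by 0.38, Krt8 by 0.26 and Cdh1 by 0.18. Epcam (0.06) and Krt18 (-0.02) did not pass. Of 6 T cell markers 0 rose and 0 fell, of 4 neutrophil markers 0 rose and 0 fell, and of 3 B cell markers 1, Ms4a1, rose. Of the T cell list 1 gene and of the B cell list 0 genes were on the coarser value step, against 18 of 19 proliferation genes and 7 of 9 fibroblast markers. The part of proliferation and of the cell-type makeup in the falls of the 28 enzymes was not tested.

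**Figure D4:**
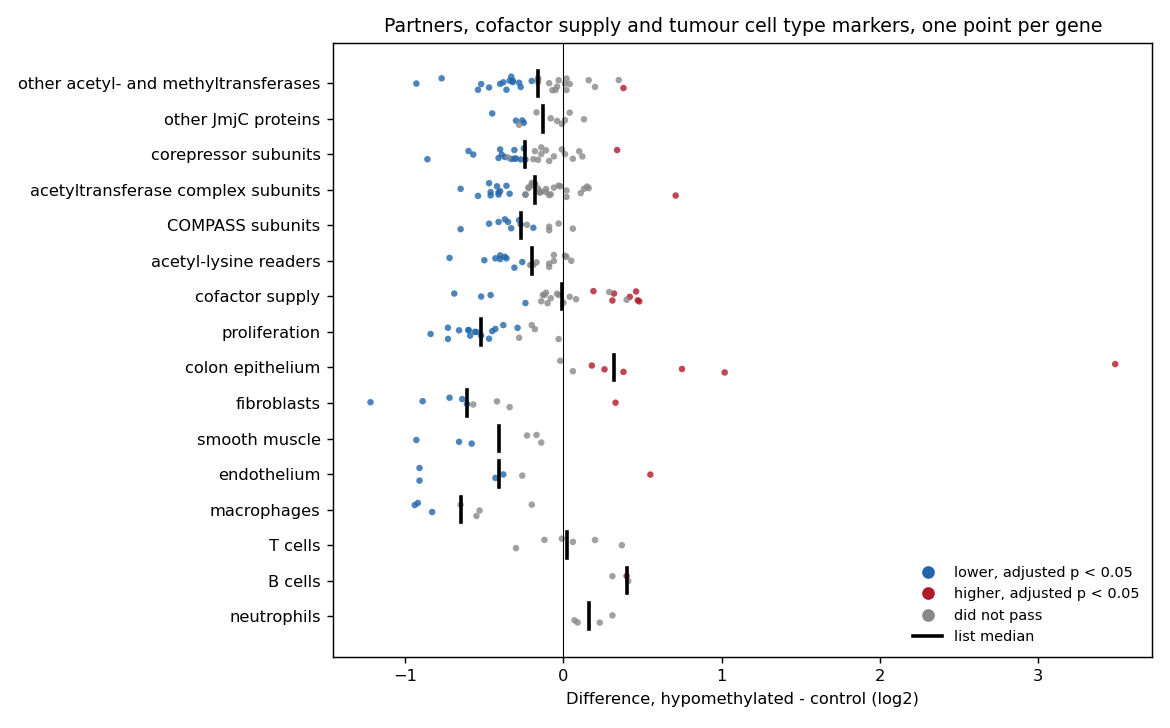
Difference of the hypomethylated from the control tumours (log2) for every measured gene of 16 lists, 1 point per gene with a black bar at the median of each list. Proliferation genes (median -0.52), fibroblast markers (-0.61) and macrophage markers (-0.65) lie farthest below 0, the corepressor (-0.24) and Kmt2 and Setd1 complex (-0.27) subunits lie closer to it, and colon epithelial markers (0.32) lie above it.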

How the data were processed

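RNA of 6 colon tumours, 3 per group, was labelled for Affymetrix arrays, and the descriptions of 4 samples name the mouse Gene 1.0 ST type, per the labels. The authors deposited 1 table of 28856 probe sets, taken as log2 values, with every probe set centred on its median. Array normalization is not given in the sources used here, and no label states the log base. Probe sets with 1 symbol in the platform annotation (21789; 1621 had several and 5446 none) were averaged per gene. The values fall on 1 of 2 binary steps, with exponent -20 (48.2% of probe sets) or -21 (51.8%), and the coarser step was taken to mean values of 8 or more before centring, which lower values can meet by chance. The groups were compared with limma 3.58.1 in R 4.3.3 (lmFit and eBayes with no trend, 3.02 prior degrees of freedom), two-sided, over 19938 genes, with Benjamini-Hochberg adjustment and a threshold of 0.05. Every member is named. From the other lists, members with the smallest p and those that went against their list are named. The members, the lists and the tests were chosen with earlier results of these data known. The code was tested on simulated data. Alternatives were array weights, robust eBayes, median centring of arrays, quantile normalization, genes on the coarser step, the probe set with the smallest spread, the replicate number as a block, a threshold of 0.01 and leaving out each tumour. Promoters came from RefSeq (GRCm38.p6), and 56 of 68 members matched. Arrays carry no counts, so their number limits the precision.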

Additional observations from a re-analysis of the deposited data

How the results depend on the processing

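No called member changed sign under the 14 alternatives, and 16 of the 29 called members passed under all of them. The number of lower members (28) was 16 at a threshold of 0.01 and ran from 20 to 28 when 1 tumour was left out. At 0.01 there were 5 lower deacetylases (8 at 0.05), 1 sirtuin (2), 1 acetyltransferase (3), 4 demethylases (8) and 1 lysine methyltransferase (2), with 0 higher members and 0 higher demethylases. The main fit did not treat the replicate numbers of the titles as pairs. Same-numbered tumours correlated at -0.291, -0.311 and -0.221 in their deviations from the group means, and differently numbered ones at 0.0515 to 0.287. The deviations within a group depend on each other, so these values do not settle whether the numbers pair the tumours. With the replicate block 10 called members were lost, with 5 lower deacetylases, 1 sirtuin, 1 lysine methyltransferase, 0 higher members and 0 higher demethylases. The number of higher members (1) was 2 with array weights, median centring, quantile normalization or the probe set with the smallest spread, and the lysine methyltransferases then had 1 higher member (0) except with array weights, where the sirtuins had 1 (0). Array weights gave control 1 a weight of 7.69. Lower lysine methyltransferases numbered 4 with array weights, 4 on the coarser step and 1 with quantile normalization. Leaving out 1 tumour gave 0 to 1 higher members, 1 to 2 lower and 0 to 1 higher sirtuins, 1 to 2 lower acetyltransferases, 0 to 1 higher demethylases and 1 to 3 lower lysine methyltransferases. The cause of these changes was not tested. Signal over background was not used here, so members near the floor of the array could not be told from others. The 5 members off the coarser step were Hdac9, Sirt5, Kdm4d, Setd4 and Prmt8, and of these only Hdac9 was called. They are taken to have had a value under 8 before centring in some tumour.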
